A study of Homo sapiens with 6 samples.

Results

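Angiopoietins, angiopoietin-like proteins, adrenomedullin and endothelin-1 are secreted proteins and peptides that act on blood vessels. The 10 genes described here encode such ligands, the enzyme that matures endothelin and some of the receptor subunits: ANGPT1, ANGPT2, ANGPTL2, ANGPTL4, ADM, EDN1, ECE1, EDNRA, RAMP1 and CALCRL. All 10 were found by symbol among 61541 genes in the deposited count table. They were selected by name and family with the fold changes between these same libraries already known, so their differences between the groups are given as a description, without p-values.

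The data were RNA-seq gene counts from 6 libraries of cells labelled A498, an established line of human renal carcinoma of the clear cell type. The 3 control libraries (labelled shcontrol) came from cells carrying a short hairpin RNA (shRNA) as the control, and the 3 knockdown libraries (labelled shRNF26) from cells whose shRNA targets RNF26, a ubiquitin ligase gene. RPMI-1640 medium with fetal bovine serum was used for both groups, and the labels name neither the hairpin sequence nor the number of hairpins or clones. The series title links RNF26 to the sensitivity of this cancer to drugs against angiogenesis.

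Totals were 16682871 to 18021718 counts a library. RNF26 had 1942 to 2030 CPM (counts scaled to library size, adjusted by the trimmed mean of M values, TMM) in the control libraries and 68.3 to 69.2 CPM in the knockdown libraries. Of 13 markers of renal tubule and of this carcinoma, 10 stayed under a mean of 1 CPM, among them PAX2, CA9 and CDH16, and the list summed to 598 to 613 CPM in control and 608 to 639 CPM in knockdown libraries. Nearly all of that sum was VHL (429 ± 11.7 CPM in control) and EPAS1 (170 ± 5.88 CPM), which many other cell types also express. PAX8 had 2.90 ± 0.357 CPM in control (mean ± SD, n = 3 here and below). All 8 squamous epithelial markers were above that level, with KRT5 at 583 ± 21.3 CPM, so the labelled cell type rests on the label. The summed level of the squamous list was 2090 to 2231 CPM in the control and 1561 to 1636 CPM in the knockdown libraries. Its genes did not move together. By the edgeR threshold given below, KRT17, KRT6A, SFN and DSG3 fell, TP63 rose, and KRT5, KRT14 and DSC3 did not pass. KRT17 went from 511 ± 13.4 to 285 ± 1.39 CPM and TP63 from 173 ± 7.37 to 194 ± 3.12 CPM. Of 10 endothelial markers 9 were below 1 CPM, and the list summed to 7.55 to 7.70 CPM in control and 5.71 to 8.14 CPM in knockdown libraries. Of 9 fibroblast and mural markers 7 were below 1 CPM, and the list summed to 58.0 to 68.5 CPM in control and 84.7 to 91.3 CPM in knockdown libraries, almost all of it COL1A1, while all 4 leukocyte markers were below 1 CPM, with sums of at most 0.244 CPM. The part of these lists in the results was not tested. In bulk RNA, fewer cells of a type and less RNA per cell cannot be told apart.

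As background, ANGPT1 activates the endothelial receptor tyrosine kinase TIE2, encoded by TEK, and ANGPT2 acts on the same receptor mostly as a context-dependent antagonist. ANGPTL4 inhibits lipoprotein lipase and is induced by hypoxia and by PPAR nuclear receptors. Adrenomedullin, from ADM, is a vasodilator whose receptor is a complex of CALCRL with a RAMP protein. Endothelin-1, from EDN1, is a vasoconstrictor cut from its precursor by the enzyme ECE1 and bound by the receptors EDNRA and EDNRB.

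The promoters of the 3 member ligand genes with the largest drops are shown first, because they share a word at nearly the same place, with that of EDNRA, whose level was nearly equal in both groups. Each run holds the 250 bases before a transcript start in RefSeq, build GRCh38.p14, 5′ to 3′ on the gene's strand. Capitals mark matches to the searched words. ANGPTL4 lies at chr19:8363905-8364154, ADM at chr11:10304823-10305072, EDN1 at chr6:12290111-12290360 and EDNRA at chr4:147480847-147481096, all on the plus strand. EDN1 has 3 listed starts, and the one printed was picked after its TATAAA match was seen.
ANGPTL4: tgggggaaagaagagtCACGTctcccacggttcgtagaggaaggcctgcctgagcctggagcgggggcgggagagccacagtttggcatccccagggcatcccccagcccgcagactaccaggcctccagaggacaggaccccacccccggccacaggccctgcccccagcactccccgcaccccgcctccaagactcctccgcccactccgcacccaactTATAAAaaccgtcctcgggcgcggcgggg
ADM: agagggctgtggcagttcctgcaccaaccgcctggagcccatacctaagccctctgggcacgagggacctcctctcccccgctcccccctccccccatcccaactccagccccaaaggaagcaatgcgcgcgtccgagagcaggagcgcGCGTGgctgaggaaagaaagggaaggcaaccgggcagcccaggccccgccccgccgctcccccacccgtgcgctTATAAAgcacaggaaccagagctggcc
EDN1: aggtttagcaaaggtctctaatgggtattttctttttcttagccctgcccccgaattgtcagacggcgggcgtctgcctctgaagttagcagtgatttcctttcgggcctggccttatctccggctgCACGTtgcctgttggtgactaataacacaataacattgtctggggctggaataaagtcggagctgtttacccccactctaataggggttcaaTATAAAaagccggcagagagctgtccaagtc
EDNRA: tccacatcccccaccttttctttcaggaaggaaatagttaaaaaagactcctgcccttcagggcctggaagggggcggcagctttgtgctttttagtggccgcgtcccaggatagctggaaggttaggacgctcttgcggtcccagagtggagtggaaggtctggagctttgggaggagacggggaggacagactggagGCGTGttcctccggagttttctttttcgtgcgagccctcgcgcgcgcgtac

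The word TATAAA, the core of the TATA box, began at -29 in ANGPTL4, -27 in ADM and -31 in this EDN1 promoter, where -1 is the base before the start. No TATAAA was found in the listed promoters of EDNRA, ANGPTL2 or CALCRL, nor in the other 2 of EDN1. ECE1, whose level was also lower (log2 fold change -0.22), had no TATAAA in any of its 4 listed promoters. TATAAA occurred on either strand in 11.5% of all 35116 listed promoters (250 bases before to 50 after a start), and on the sense strand between -40 and -20 in 2.3%. RefSeq promoters were matched for 7 of the 10 genes. The hypoxia response core ACGTG was found once in ANGPTL4, at -234, and once in the printed EDN1 promoter, at -123, both on the opposite strand. Its variant GCGTG was found once in ADM, at -101, and once in EDNRA, at -51. Of the promoters not printed, the first of EDN1 held ACGTG at -240 and -93 and GCGTG at -47, and those of ECE1 held GCGTG at -192 in the third and at -208 and -198 in the fourth. Across all promoters 21.4% held ACGTG and 36.5% held GCGTG. No match shared a base with another in the printed promoters. The AP-1 word TGANTCA (7.71% of all promoters), the cyclic AMP response word TGACGTCA (1.85%), the C/EBP-ATF word TGATGCAA (0.87%) and the nuclear receptor word AGGTCA (13.8%) matched no member promoter. Both strands were searched. A match is a match of letters and does not show that a factor binds there. Only exact words were counted, so a missing match does not show that a site is absent.

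Counted over the 10 genes, 7 reached the mean of 1 CPM needed for testing. In the quasi-likelihood test of edgeR, 4 of the 7 were called lower (ANGPTL4, EDN1, ADM and ECE1), 1 was called higher (ANGPT1), and EDNRA and RAMP1 were not called. Across all 14766 tested genes 41.4% were called, 22.6% lower and 18.9% higher. Nothing is read from the members' count, since the same contrast was known when they were chosen. The median log2 fold change was -0.22 over the 7 genes and 0.0079 over all tested genes. With libraries scaled by total counts alone, 4449 genes were called higher and 2269 lower in place of 2785 and 3332, and the 5 member calls kept their direction.

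**Figure D1:**
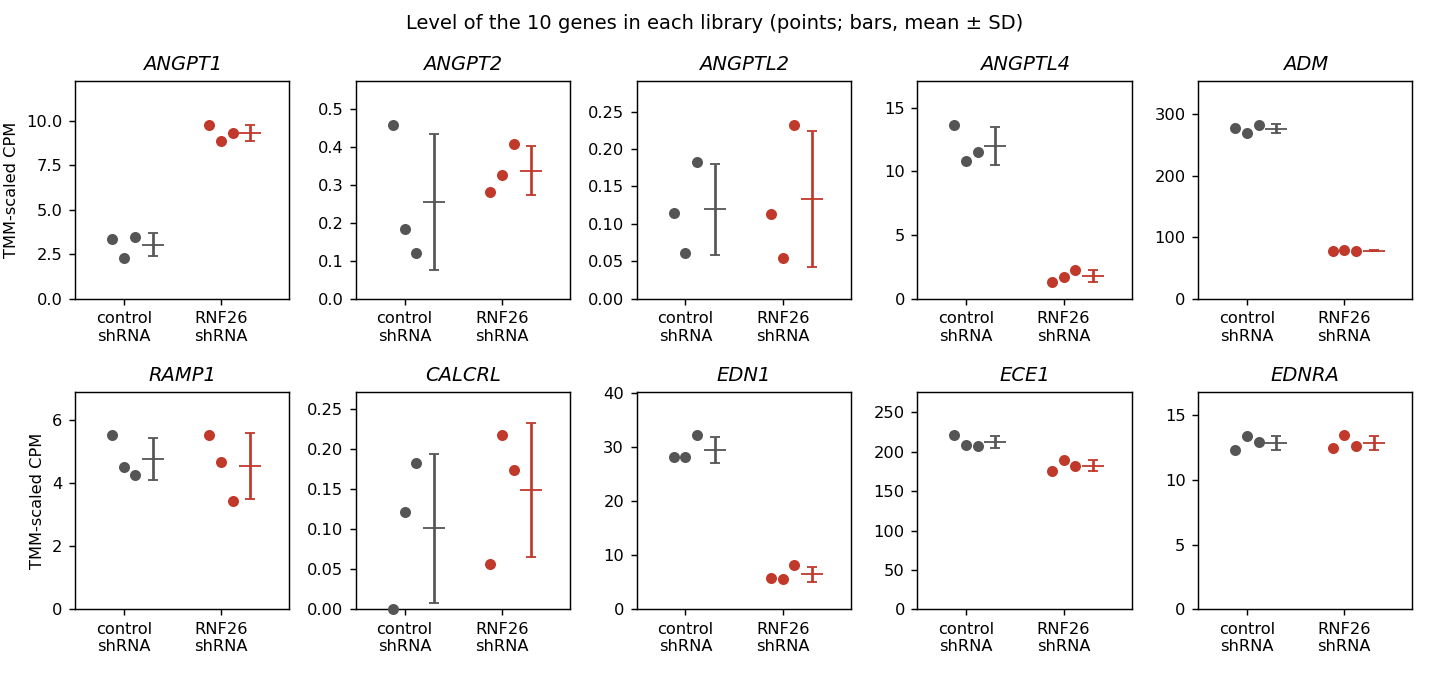
Level of each of the 10 genes (y axis, TMM-scaled CPM, a separate scale per gene starting at 0) in the 3 control and 3 RNF26 knockdown libraries. Points are libraries and bars are mean ± SD. ANGPTL4, ADM, EDN1, ECE1 and ANGPT1 show groups that do not overlap, while ANGPT2, ANGPTL2, RAMP1, CALCRL and EDNRA overlap. How many of all tested genes separate in this way was not counted, so nothing is read from the number of members that do.

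Among the angiopoietin and angiopoietin-like ligands, ANGPTL4 was lower and ANGPT1 higher in the knockdown libraries. ANGPTL4 (ENSG00000167772) had 13.7, 10.8 and 11.5 CPM in the control libraries and 1.35, 1.74 and 2.27 CPM in the knockdown libraries. Every knockdown library lay below every control library, and the knockdown mean was 14.9% of the control mean. This is a log2 fold change of -2.75 (SE 0.176). The knockdown values rest on 24, 32 and 39 counts. The SD of their scaled CPM was 25.8% of the mean, against 17.8% for counting error alone. The log2 fold change reached -2.95 without knockdown replicate 3 and -2.58 without knockdown replicate 1. Exons of ANGPTL4 overlap the antisense gene RAB11B-AS1, which had 2.90 ± 0.477 CPM in control and 2.31 ± 0.587 CPM in knockdown libraries (log2 fold change -0.33, SE 0.238). With the strand setting of the counting unknown, reads of this pair cannot be told apart.

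ANGPT1 (ENSG00000154188), the TIE2 agonist, went the other way. It had 3.33, 2.31 and 3.47 CPM in the control libraries and 9.79, 8.86 and 9.31 CPM in the knockdown libraries, with no overlap. The lowest knockdown library was thus well above the highest control library, and the means differed 3.07-fold. On the log2 scale the difference was 1.61 (SE 0.161), or 1.45 without control replicate 2, the lowest control library.

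ANGPT2 and ANGPTL2 were close to the counting limit. ANGPT2 (ENSG00000091879) had 8, 3 and 2 counts in the control and 5, 6 and 7 in the knockdown libraries. ANGPTL2 (ENSG00000136859), a secreted protein linked to inflammation, had 2, 1 and 3 counts against 2, 1 and 4. Both genes overlapped between groups at means of 0.119 to 0.338 CPM, where 3 counts are worth 0.166 to 0.180 CPM before TMM scaling. A difference in either gene was not detectable at this depth, and ANGPT2 shares exon positions with MCPH1 on the opposite strand.

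The TIE receptors of the angiopoietins and LILRB2 were at or near 0, while SDC4 and the integrin subunits ITGA5, ITGB1 and ITGAV, on the same list, were abundant. The subunit ITGB3 was scarce, at 1.33 ± 0.0908 CPM in control and 0.941 ± 0.253 CPM in knockdown libraries, and was not called. TEK had 0, 0 and 3 counts in control and 0, 0 and 1 in knockdown libraries, and the related receptor TIE1 had 0, 2 and 0 against 0, 1 and 0. LILRB2, a leukocyte receptor that binds ANGPTL2, had 0 counts in all 6 libraries, which allows up to 0.180 CPM in each by counting error alone. Of the 24 other genes on the angiopoietin list, chosen by role, 13 were tested, 1 rose, 4 fell and 8 did not pass. With total-count scaling 3 of them rose and 2 fell. Over all tested genes, with TMM scaling, 18.9% rose and 22.6% fell. SDC4, a cell-surface heparan sulfate proteoglycan, fell most, from 340 ± 14.3 to 157 ± 1.47 CPM (log2 fold change -1.11, SE 0.0417). The integrin subunits ITGA5 (-0.24) and ITGB1 (-0.23), and the proprotein convertase FURIN (-0.12) fell slightly on the log2 scale, and the integrin subunit ITGAV rose by 0.11. Total-count scaling ended the calls of ITGA5 (-0.15) and FURIN (-0.03), and the ITGAV call was lost in 8 of 15 alternatives. Only 3 of the list were called, all lower, without control replicate 1 or without any 1 of the 3 knockdown libraries. LPL, the lipase that ANGPTL4 inhibits, had 61.8 ± 2.70 and 65.6 ± 2.80 CPM and was not called (log2 fold change 0.09). PTPRB, a phosphatase that acts on TIE2, had a log2 fold change of 0.11 and was not called.

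The adrenomedullin system showed a lower ligand beside scarce transcripts of CALCRL, RAMP2 and RAMP3, while ACKR3, given below, had 118 CPM in control libraries. ADM (ENSG00000148926) had 278, 269 and 283 CPM in the control libraries and 77.7, 78.8 and 76.9 CPM in the knockdown libraries. The knockdown libraries were all near 78 CPM and far below every control library, and the knockdown mean was 28.1% of control. The log2 fold change was -1.83 (SE 0.0429). With 1322 to 4839 counts a library ADM was measured with little spread, 2.55% of the mean in control and 1.26% in knockdown libraries. Its values in 15 alternatives ran from -1.85 to -1.74.

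CALCRL (ENSG00000064989), the G protein-coupled receptor subunit, had 0, 2 and 3 counts in control and 1, 4 and 3 in knockdown libraries, so no difference could be detected. RAMP1 (ENSG00000132329), the accessory protein that turns CALCRL into a receptor for calcitonin gene-related peptide (CGRP), had 5.51, 4.51 and 4.26 CPM against 5.52, 4.67 and 3.43 CPM. The groups overlapped, and the log2 fold change of -0.07 (SE 0.189) turned to 0.02 with total-count scaling. RAMP2, which makes the adrenomedullin receptor, had 1.63 ± 0.338 and 1.40 ± 0.407 CPM and was not called, and RAMP3 had 0 counts throughout. CALCR had 0 to 3 counts a library and GPR182, a decoy receptor, 4 to 14.

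Of 20 other genes on the adrenomedullin and CGRP list, 14 were tested, 4 rose, 3 fell and 7 did not pass (6 and 3 with total-count scaling). Among all tested genes the TMM shares were 18.9% higher and 22.6% lower. The 3 that fell were ADM2, ACKR3 and CRCP. ADM2, which encodes the related peptide intermedin, had 4.77, 4.63 and 4.99 CPM in control and 1.01, 0.761 and 0.931 CPM in knockdown libraries, a log2 fold change of -2.40 (SE 0.231). It was named after its values were seen, its mean lying below the 5 CPM set for named genes. ACKR3, a scavenging receptor that also binds adrenomedullin, fell from 118 ± 3.05 to 81.3 ± 2.30 CPM (-0.54, adjusted p = 2.37e-08), and CRCP, a CGRP receptor component that is also an RNA polymerase III subunit, by 0.44 on the log2 scale. Among those that rose were the peptidase MME (0.40), the prohormone carboxypeptidase CPE (0.40) and the adenylyl cyclase ADCY6 (0.16), on the log2 scale. The ADCY6 call was lost without control replicate 2 (0.14), control replicate 3 (0.14) or knockdown replicate 1 (0.13). PAM, which amidates adrenomedullin, had 43.7 ± 3.37 and 46.7 ± 1.82 CPM and was not called.

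**Figure D2:**
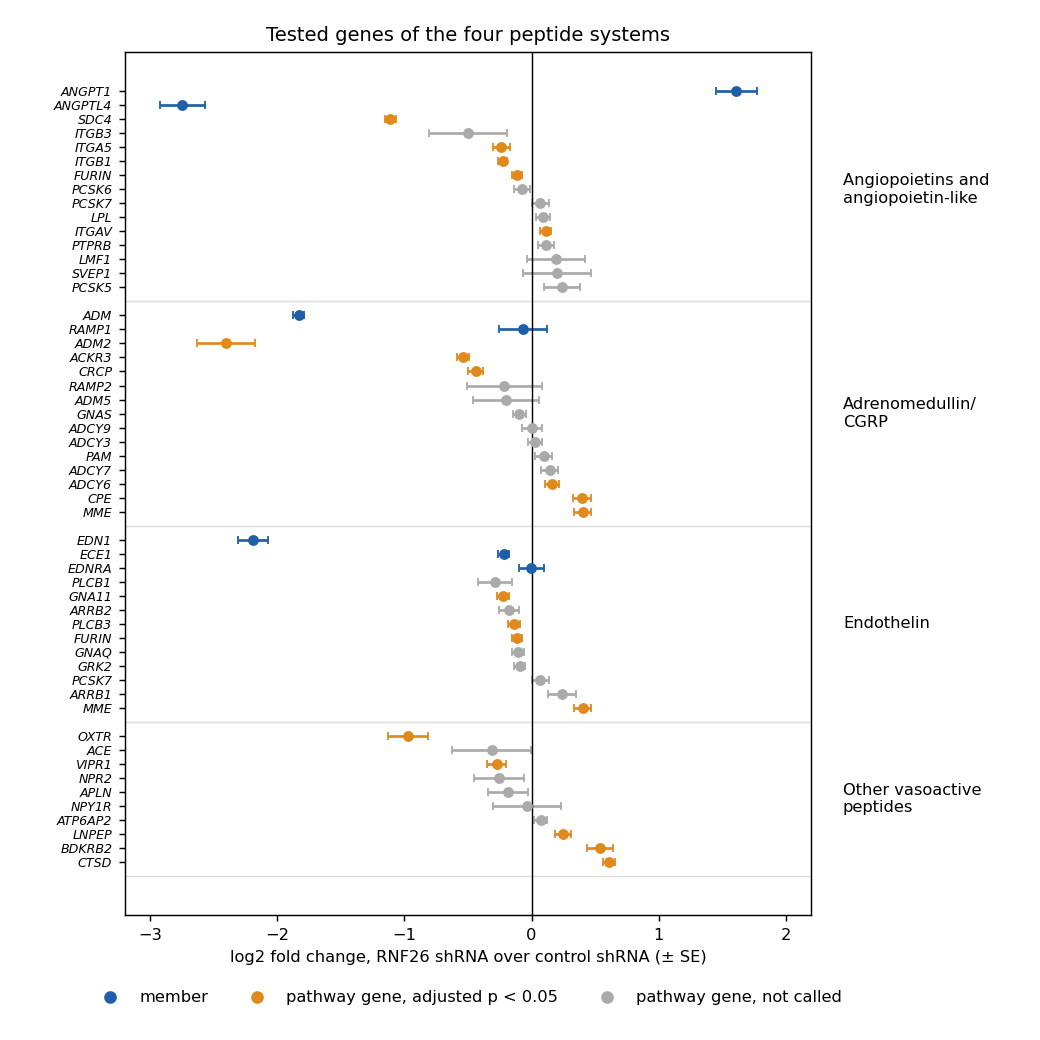
Log2 fold change of RNF26 knockdown over control (x axis, points with SE bars) for tested genes of the peptide systems, in rows grouped by system. Blue points are members, orange points pathway genes called by edgeR and grey points pathway genes not called. ANGPTL4 (-2.75), ADM2 (-2.40), EDN1 (-2.19) and ADM (-1.83) lie farthest to the left and ANGPT1 (1.61) farthest to the right.

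In the endothelin system the ligand, its converting enzyme and its receptor showed 3 different patterns. EDN1 (ENSG00000078401) had 28.1, 28.1 and 32.2 CPM in the control and 5.74, 5.54 and 8.14 CPM in the knockdown libraries. The groups did not overlap, and the knockdown mean was 22.0% of control. On the log2 scale the difference was -2.19 (SE 0.120). Knockdown replicate 3 was the highest of its group at 140 counts against 102 in each of the other two, and without it the value was -2.38.

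ECE1 (ENSG00000117298), the metalloprotease that cuts big endothelin-1, had 221, 208 and 207 CPM in control and 175, 189 and 181 CPM in knockdown libraries. The groups did not overlap, but the step was small, with a knockdown mean of 85.9% of control. The log2 fold change was -0.22 (SE 0.0437), and -0.13 with total-count scaling. Exons of ECE1 overlap AL031728.1, a non-coding gene read from the other strand.

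EDNRA (ENSG00000151617), the endothelin receptor of smooth muscle, had 12.3, 13.3 and 12.9 CPM in control and 12.4, 13.4 and 12.6 CPM in knockdown libraries. The groups overlapped, with means of 12.8 ± 0.524 and 12.8 ± 0.535 CPM. The log2 fold change of -0.0034 (SE 0.0975) lay between -0.04 and 0.09 in the alternatives, so its sign was not fixed. The other endothelin receptor gene EDNRB had 0, 1 and 0 counts against 0, 2 and 0. The ligand genes EDN2, with 0 to 2 counts a library, and EDN3, with 0 in all 6, were not measurable.

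Of 18 other genes on the endothelin list, 10 were tested, 1 rose, 3 fell and 6 did not pass, against 2 that rose and 1 that fell with total-count scaling. For all tested genes the TMM shares were 18.9% higher and 22.6% lower. MME, which also degrades endothelin, rose as given above. GNA11, a G protein subunit downstream of EDNRA, fell by 0.22 on the log2 scale, and the phospholipase PLCB3 (-0.14) and FURIN (-0.12) fell less. The calls for PLCB3 and FURIN ended with total-count scaling, at -0.05 and -0.03. Leaving out 1 library also ended them, for FURIN in each case except control library 3 and for PLCB3 without control library 1, knockdown library 1 or knockdown library 3. The list had only 2 calls when control library 1, knockdown library 1 or knockdown library 3 was left out, and 6 without control library 3. FURIN, PCSK7 and MME each stand on a pair of these lists. The partner G protein GNAQ had a log2 fold change of -0.11 and was not called.

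Most genes of other vasoactive peptide systems were too low to be tested. Of 41, 31 were below a mean of 1 CPM, among them the angiotensin receptor gene AGTR1 and the angiotensinogen gene AGT. AGTR1 had 0 counts in 5 libraries, and AGT had 12 to 21 counts in each library. Among 10 tested, 3 rose, 2 fell and 5 did not pass. With total-count scaling 4 of them rose and 1 fell. The TMM shares over all tested genes were 18.9% higher and 22.6% lower. The protease CTSD (0.61), the bradykinin receptor BDKRB2 (0.54) and the aminopeptidase LNPEP (0.25) rose, and the oxytocin receptor OXTR (-0.97) and the VIP receptor VIPR1 (-0.27) fell, all on the log2 scale. The VIPR1 call ended with total-count scaling (-0.18). The apelin ligand APLN had 6.09 ± 0.0597 and 5.36 ± 0.893 CPM and was not called.

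Levels of the 10 genes relative to each other were compared per kilobase of exon (TMM-scaled CPM divided by the merged exon length in GENCODE 29). In control libraries ADM was highest at 101.9 ± 2.60 CPM per kb, then ECE1 at 28.9 ± 1.05 and EDN1 at 14.5 ± 1.16. ANGPTL4 (4.84 ± 0.596) and RAMP1 (3.86 ± 0.538) overlapped between libraries, and EDNRA followed at 3.03 ± 0.124. ANGPT1 was at 0.426 ± 0.0887, and ANGPT2, ANGPTL2 and CALCRL lay at or below 0.0376 and were not separable from one another. In knockdown libraries ADM still led at 28.6 ± 0.359 and ECE1 was next at 24.8 ± 0.940. RAMP1, EDN1 and EDNRA then overlapped at 3.68, 3.19 and 3.02 CPM per kb. ANGPT1 at 1.31 ± 0.0657 stood above ANGPTL4 at 0.720 ± 0.186, the reverse of their control order. With the longest transcript as the length the order was the same in both groups, and the ANGPT1 values were 0.698 and 2.14 CPM per kb.

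**Figure D3:**
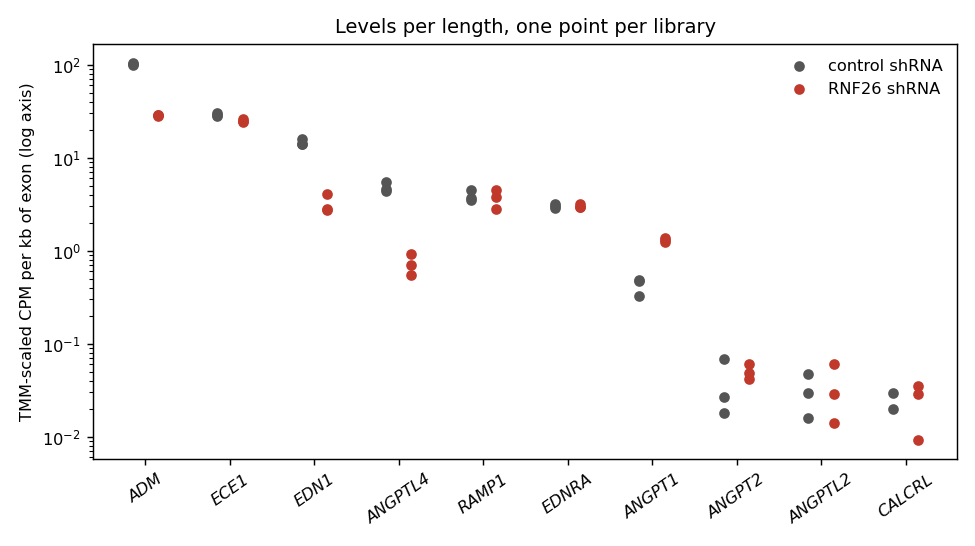
TMM-scaled CPM per kilobase of exon (y axis, log scale) for the 10 genes in order of their control level, 1 point per library, control in grey and RNF26 knockdown in red. The control library of CALCRL with 0 counts is not drawn. ADM and ECE1 lead in both groups, and ANGPT1 and ANGPTL4 exchange places.

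Transcription factors described at promoters of these genes moved in both directions. Of 20, all were tested, 4 rose, 9 fell and 7 did not pass, while with total-count scaling 7 rose and 6 fell. Over all tested genes, with TMM scaling, 18.9% rose and 22.6% fell. The list was chosen with earlier results of these data known, so nothing is read from its counts. The AP-1 subunits JUN (-2.73) and FOS (-2.36), ETS1 (-1.31), the stress factor ATF4 (-0.99), the glucocorticoid receptor NR3C1 (-0.38) and FOXO3 (-0.33) fell on the log2 scale. HIF1A, the oxygen-regulated subunit of hypoxia-inducible factor, rose from 501 ± 21.9 to 643 ± 19.0 CPM (log2 fold change 0.36, edgeR adjusted p = 6.27e-07), and RXRA, the partner of PPAR receptors, rose by 0.40 on the log2 scale. The other called factors were named after their values were seen. ARNT, the partner of HIF1A, rose by 0.28 and EPAS1 by 0.19, and GATA2 (-0.23), the NF-kappaB subunit RELA (-0.19) and PPARG (-0.14) fell. The calls of these 3 that fell ended with total-count scaling, at -0.14 for GATA2, -0.10 for RELA and -0.05 for PPARG. Transcript levels do not give the amount or activity of these proteins.

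The genes whose pattern over the 6 libraries was most like each of the 4 members with the largest log2 fold changes were found by root mean square distance between centred log2(CPM + 1) values. The candidates were 10674 protein-coding genes with a mean of at least 5 CPM. ANGPTL4 was nearest to the immediate early factor EGR1 (distance 0.157), the cytokine IL11 (0.165) and the AP-1 subunit FOSL1 (0.166). EDN1 was nearest to the MYC antagonist MXD1 (0.138), the chemokine CXCL2 (0.152) and again IL11 (0.161). ADM lay closer to its neighbours, among them the transcription factor KLF6 (0.0462) and the laminin chain LAMB3 (0.0598). ANGPT1 was nearest to the aldo-keto reductase AKR1C2 (0.133), whose near-identical relatives make its counts uncertain, the stem cell factor SOX2 (0.164) and the cadherin FAT2 (0.165). These distances mainly reflect the difference between the 2 groups, which all of these genes share. The added 1 makes changes of low genes smaller, so neighbours need not share a member's fold change. On that scale ANGPTL4 changed by -2.23 in place of -2.749, and ANGPT1 by 1.365 in place of 1.612. The edgeR log2 fold changes were -2.364 for EGR1, -2.085 for IL11 and -2.131 for FOSL1. They were 1.555 for AKR1C2, 1.197 for SOX2 and 1.184 for FAT2.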

How the data were processed

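RNA-seq gene counts were deposited by the authors as 1 table of 61541 genes and 6 libraries, named for FPKM but holding whole numbers with unequal totals, and so treated as raw counts. Build hg19 comes from the submitters' processing notes. For the aligner, counter and strand setting the sources used here give nothing. The 2 blank rows held 0% of the counts.

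Symbols came from a gene name table for 61369 IDs and from GENCODE 29 otherwise. Genes with a mean of at least 1 CPM (14766, with 99.7% of counts) were fitted in edgeR 4.0.16 (R 4.3.3) with TMM scaling and the two-sided quasi-likelihood test, adjusted by Benjamini-Hochberg over all of them (threshold 0.05). SE was derived from the fold change and its F statistic. Replicates differed by more than sampling noise (chi-square per gene 2.24 to 4.69), but the labels do not call them separate cultures, and p-values cover only the spread among these libraries, which may be technical.

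Members and lists were chosen with earlier results of these data known. From each list, called genes with a mean of at least 5 CPM were named, at most 8, together with the members' receptors, and 2 genes that this rule selects are not reported here. Other names (uncalled pathway genes, markers and further called genes) were added after the values were seen. Alternatives were other scalings, filters and tests (DESeq2 1.42.0, limma 3.58.1), a replicate block and leaving out each library. Counting limits cover counting error only. Promoters came from RefSeq (GRCh38.p14), and coordinates are in that build.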

Additional observations from a re-analysis of the deposited data

How the results depend on the processing

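The 7 tested members kept their side of the threshold in each of 15 alternatives that tested them, and the 5 called ones kept their direction. RAMP1 was not tested at a minimum mean of 5 CPM. All tested genes called numbered 4975 to 6718 against 6117. Leaving out 1 library gave 3 to 4 calls for the angiopoietin list (5 with all libraries) and 2 to 6 for the endothelin list (4), where fewer samples were fitted. Of 32 called pathway genes, 23 kept their call in every alternative that tested them. ADM2, one of the 23, was not tested at a minimum mean of 5 CPM. The log2 fold changes of EDNRA and RAMP1 changed sign, at 0.09 and 0.02 with total-count scaling, which raised the median of all genes by 0.091. With lower filters ANGPT2, ANGPTL2 and CALCRL were tested and not called. The replicate block gave 6414 calls over all genes and the same 5 among the members. Same-numbered libraries did not deviate together (correlations -0.0272 to 0.0934), so the numbers were not taken to pair them. Depth limits statements on genes below 1 CPM.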

Other observations

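The TATAAA word shared by the promoters of ANGPTL4, ADM and EDN1 led to a count over other genes, made after that match was seen. Of 10767 tested genes with a listed promoter, 231 had TATAAA on the sense strand between -40 and -20. Among these 231, 100 were called lower (43.3%) and 42 higher (18.2%), against 23.1% lower and 20.3% higher among the 10536 without it. Scaled by total counts, the shares called lower were 37.2% and 15.6%. Without histone genes 217 remained, of which 41.5% were called lower. The 3 members are themselves among the 231, and the counts are a description of this comparison, with no test.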
